A study of Mus musculus with 70 samples.

Results

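The 7 genes Sspo, Tmem45b, C2cd4c, Upk3a, Dock6, Bpifb3 and Ttbk1 were rare or modest transcripts in the hypothyroid mouse pituitary that were present at far higher levels after T3 treatment of wild-type mice, and that rose much less or not at all in mice labelled Thrb-KO. They are 7 of 22835 genes in the RNA-seq table. They were selected on the size of their T3 response in wild type and on its weakness in Thrb-KO in these same libraries, so every value below for T3 response or genotype in the 7 genes is a description and carries no test. Sspo, Upk3a, Dock6 and Ttbk1 were expressed above 1 CPM (counts scaled to the library total) in every Thrb-KO library and so were not silent there. For Dock6 and Ttbk1 the 5 hyperthyroid Thrb-KO libraries all lay above the 5 hypothyroid ones, while for the other 5 genes the treatments overlapped in Thrb-KO.

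RNA was sequenced from whole pituitaries of male C57BL/6J mice aged 2 to 4 months, each library being a pool of 3 glands. Every group received methimazole (MMI, 0.05%) and potassium perchlorate (KClO4, 1%) in the drinking water for 4 to 5 weeks, which blocks thyroid hormone synthesis. Hypothyroid groups received nothing else, and hyperthyroid groups also received T3 at 0.5 µg/ml during the final 1 week. The groups were hypothyroid wild type (n = 4 libraries), hyperthyroid wild type (n = 4), hypothyroid Thrb-KO (n = 5) and hyperthyroid Thrb-KO (n = 5). The Thrb deletion is carried in the germline, hence by every cell of the animal and not by the pituitary alone. TRβ binding sites came from ChAP-seq of untreated male HAB;BirA mice, homozygous for the tagged allele Thrb HAB and for the BirA ligase allele Rosa26 BirA, in which the tag on the endogenous receptor is biotinylated and captured on streptavidin. They were set against BirA mice, homozygous for Rosa26 BirA without the tag, with 3 libraries per genotype in pituitary and 3 in cerebral cortex. The 6 untreated control libraries are named BirA in their titles but carry the HAB;BirA genotype in another label, and the titles were followed. Open chromatin that changed with T3 came from ATAC-seq of pituitary nuclei purified through Rosa26 Sun1-GFP, which Thrb2-Cre switches on in cells that have used the TRβ2 promoter, with 4 hypothyroid and 4 hyperthyroid libraries. These male mice received the MMI, KClO4 and T3 treatments stated for RNA. The ChAP-seq and ATAC-seq mice were also 2 to 4 months old but of mixed strain background, unlike the C57BL/6J mice of the RNA.

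T3 receptors are nuclear receptors that bind DNA both with and without T3, usually as a heterodimer with RXR. Their best-known DNA element is the DR4, a direct repeat of the hexamer AGGTCA with a spacer of 4 bases, and T3 bound to the receptor exchanges corepressors for coactivators at many such elements. TRβ is the main T3 receptor of the anterior pituitary, where its TRβ2 isoform mediates the feedback of thyroid hormone on thyrotropes and where T3 also raises growth hormone expression in somatotropes.

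Library totals were 21453548 to 55273749 reads, so that 3 reads, taken as the detection limit, equalled 0.0543 to 0.140 CPM, the deposited unit, in which a transcript's reads are scaled to the library total. The check of the targeted gene showed no loss of RNA, because Thrb was no lower under the Thrb-KO label than in wild type. Thrb RNA was close to wild type in the hypothyroid groups and above it in the hyperthyroid groups, without overlap there. It stood at 257 ± 27.3 CPM (SD, n = 4) in hypothyroid wild type, 104 ± 22.8 (n = 4) in hyperthyroid wild type, 271 ± 20.1 (n = 5) in hypothyroid Thrb-KO and 260.2 ± 31.96 (n = 5) in hyperthyroid Thrb-KO. Reads were counted over the full transcript, so this level leaves unknown whether a receptor can be made from the RNA, and Thrb-KO below means the libraries labelled Thrb-KO. The libraries also fell into 2 sets, replicates 1 and 2 of each group with Lars2 at 2571 to 3420 CPM and replicates 3 to 5 with Lars2 at 53.2 to 95.1 CPM. Hyperthyroid wild-type replicate 3 had the highest Gh of its group (159094 CPM against 87356 in the lowest) and the smallest total of its group (24662318 reads). Values within each set and without that library are given below where they bear on a gene.

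Of the 7 genes, 5 had a TRβ-HAB peak of untreated pituitary within 20 kb of the gene body, namely Sspo, Tmem45b, Dock6, Bpifb3 and Ttbk1. Peaks were present within 20 kb of 41.2% of all tested genes with coordinates and of 73.8% of genes induced by T3 in wild type, so 5 of 7 is close to the share in other T3-induced genes. The best DR4 in each of the 5 peaks is printed below because it shows how far each departs from the consensus repeat. Each is given 5′ to 3′ on the strand of the repeat, from the mm9 genome, with flanking sequence where shown, and the capitals mark the 2 hexamers of the repeat.
Sspo, chr6:48442856-48442991, minus strand: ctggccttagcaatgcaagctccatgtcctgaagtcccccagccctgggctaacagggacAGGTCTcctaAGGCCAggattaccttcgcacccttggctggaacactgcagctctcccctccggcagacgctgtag
Tmem45b, chr9:31271799-31271814, minus strand: TGGGCAcccgCGGTCA
Dock6, chr9:21655763-21655898, plus strand: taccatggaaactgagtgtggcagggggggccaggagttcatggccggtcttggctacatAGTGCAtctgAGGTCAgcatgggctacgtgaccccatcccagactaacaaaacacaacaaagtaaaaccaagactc
Bpifb3, chr2:153738704-153738823, plus strand: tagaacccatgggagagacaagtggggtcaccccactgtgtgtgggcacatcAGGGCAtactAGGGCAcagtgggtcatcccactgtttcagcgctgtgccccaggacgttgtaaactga
Ttbk1, chr17:46585239-46585374, minus strand: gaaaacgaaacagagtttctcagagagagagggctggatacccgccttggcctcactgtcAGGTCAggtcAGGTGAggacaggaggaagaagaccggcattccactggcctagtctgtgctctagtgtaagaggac

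Ttbk1 held the closest repeat, with 6 of 6 bases matched in the first hexamer and 5 of 6 in the second. Sspo and Bpifb3 matched 5 of 6 in both hexamers, and Dock6 matched 4 of 6 in the first and 6 of 6 in the second. Tmem45b, the weakest, matched 4 and then 5 of 6. A repeat with at most 2 mismatches over its 12 bases, sought on both strands, was present in 4 of the 5 peaks and in 20.9% of the 8051 pituitary peaks. With at most 1 mismatch it was present in 1 of the 5 (Ttbk1) and in 3.94% of the list, and with at most 3 in 5 of the 5 and in 55.0%. The Ttbk1 peak held 3 overlapping repeats, at 46585294-46585309 and 46585299-46585314 with 11 of 12 bases matched each and at 46585304-46585319 with 10, because the hexamer recurs there with short steps. The Bpifb3 peak held 4 repeats with 10 bases matched, 2 of them overlapping at 153738756-153738771 and 153738766-153738781 and the others at 153739035-153739050 and 153739065-153739080. These matches describe letters in a window and are not evidence of receptor contact.

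Sspo encodes SCO-spondin, a very large secreted glycoprotein of the subcommissural organ that assembles Reissner's fiber, and lies on the plus strand at chr6:48398228-48451249. Its transcript measured 3.62, 3.38, 2.73 and 2.14 CPM in the 4 hypothyroid wild-type libraries and 105, 109, 72.6 and 129 CPM in the 4 hyperthyroid wild-type libraries. The lowest hyperthyroid value was thus far above the highest hypothyroid value, and the means were 2.97 ± 0.67 and 104 ± 23.2 CPM (SD, n = 4 each), a ratio of 34.9. In Thrb-KO the hypothyroid libraries held 3.25, 3.40, 2.88, 2.56 and 2.11 CPM and the hyperthyroid libraries 3.61, 2.87, 2.84, 2.36 and 2.66 CPM. These 2 groups of Thrb-KO libraries overlapped throughout, with means of 2.84 ± 0.523 and 2.87 ± 0.462 CPM (n = 5 each) and a ratio of 1.01. The ratio in wild type was 30.4 within replicates 1 and 2, 41.3 within replicates 3 and 4, and 38.4 without hyperthyroid replicate 3.

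Upk3a encodes a uroplakin, a membrane protein of the plaques that cover bladder urothelium, and lies on the plus strand at chr15:84847571-84852990. It measured 2.34, 1.89, 2.46 and 1.81 CPM in hypothyroid wild type and 22.3, 21.6, 27.5 and 26.9 CPM in hyperthyroid wild type. The means of 2.13 ± 0.320 and 24.6 ± 3.05 CPM (n = 4 each) differed 11.6 times, with no overlap. The Thrb-KO libraries held 1.44, 1.80, 1.43, 1.64 and 1.18 CPM when hypothyroid and 1.33, 1.75, 2.38, 1.39 and 1.96 CPM when hyperthyroid, and overlapped. Their means were 1.50 ± 0.235 and 1.76 ± 0.433 CPM (n = 5 each), a ratio of 1.18.

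Dock6 encodes a guanine nucleotide exchange factor that activates the small GTPases Rac1 and Cdc42, and lies on the minus strand at chr9:21604628-21657079. It was the most abundant of the 7 both in CPM and per length, with 39.8 CPM per kb of transcript in hyperthyroid wild type. Hypothyroid wild-type libraries held 35.0, 35.6, 23.9 and 22.5 CPM and hyperthyroid ones 252, 303, 153 and 336 CPM. The mean level was 29.3 ± 7.03 against 261 ± 79.9 CPM (n = 4 each), a ratio of 8.92 that became 7.85 within replicates 1 and 2, 10.5 within replicates 3 and 4, and 10.1 without hyperthyroid replicate 3, the lowest library of its group. Unlike Sspo and Upk3a, it was also higher with T3 in Thrb-KO, from 38.8, 42.8, 36.7, 33.1 and 30.9 CPM to 60.4, 59.3, 76.2, 59.2 and 60.4 CPM. The Thrb-KO groups did not overlap, and their means of 36.5 ± 4.72 and 63.1 ± 7.35 CPM (n = 5 each) differed 1.73 times, or 1.47 times within replicates 1 and 2 and 1.95 times within replicates 3 to 5.

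Ttbk1 encodes tau tubulin kinase 1, a brain-enriched kinase of the casein kinase 1 superfamily that phosphorylates tau, and lies on the minus strand at chr17:46579397-46624624. It measured 14.0, 13.9, 8.22 and 7.14 CPM in hypothyroid wild type and 65.5, 90.8, 51.8 and 79.5 CPM in hyperthyroid wild type. The means were 10.8 ± 3.64 and 71.9 ± 16.9 CPM (n = 4 each), 6.66 times apart, the smallest ratio of the 7. Its Thrb-KO libraries went from 13.9, 12.0, 8.92, 8.05 and 9.43 CPM to 19.4, 18.4, 14.9, 15.1 and 16.2 CPM. The lowest of the hyperthyroid Thrb-KO values was above the highest of the hypothyroid ones, and the means of 10.5 ± 2.44 and 16.8 ± 2.02 CPM (n = 5 each) differed 1.60 times. In both treatments replicates 1 and 2 of Thrb-KO lay above replicates 3 to 5, and within those sets the ratio was 1.46 and 1.75.

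Tmem45b, C2cd4c and Bpifb3 lay at or below the limit of 1 CPM outside the hyperthyroid wild-type group, so their ratios rest on few reads. Tmem45b encodes a transmembrane protein and lies on the minus strand at chr9:31233784-31271823. It measured 0.171, 0.175, 0.0918 and 0.0725 CPM in hypothyroid wild type and 8.64, 10.4, 10.5 and 10.5 CPM in hyperthyroid wild type, 18 and 1424 reads in all. Thrb-KO libraries held 0.171, 0.0655, 0.163, 0.230 and 0.160 CPM without T3 and 0.245, 0.25, 0.214, 0.252 and 0.280 CPM with it. The Thrb-KO groups overlapped at their edges, and replicates 1 and 2 did not overlap (ratio of mean CPM 2.09). The hyperthyroid library was the higher one at 5 of the 5 replicate numbers, though the numbers were not shown to pair libraries. The ratio of pooled CPM, 41 against 28 reads, was 1.54 with a 95% exact counting interval of 0.931 to 2.59. The ratio of mean CPM in wild type was 78.5, and it moved from 55.1 within replicates 1 and 2 to 127.7 within replicates 3 and 4.

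C2cd4c encodes a C2 calcium-dependent domain protein, related to nuclear factors first described in endothelium, and lies on the minus strand at chr10:79069602-79076763. It measured 0.742, 0.612, 0.964 and 0.435 CPM in hypothyroid wild type and 9.18, 10.3, 4.46 and 7.49 CPM in hyperthyroid wild type, where replicate 3 was again the lowest. The mean ratio was 11.4, or 13.1 without that library. Thrb-KO libraries held 0.239, 0.196, 0.109, 0.263 and 0.320 CPM without T3 and 0.190, 0.362, 0.262, 0.221 and 0.466 CPM with it, which overlapped. Those values come from 37 and 48 reads, a ratio of 1.37 with a 95% exact counting interval of 0.871 to 2.16.

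Bpifb3 encodes a BPI fold protein of the family of secreted lipid-binding proteins that are best known from the upper airway, and lies on the plus strand at chr2:153743966-153758732. Only hyperthyroid wild-type libraries held more than 1 read each. They measured 0.607, 1.13, 1.50 and 1.78 CPM (173 reads in all), while hypothyroid wild-type libraries measured 0, 0, 0.0230 and 0.0363 CPM (2 reads). The ratio of pooled CPM was 84.6, with a 95% exact counting interval of 23.1 to 703.8. Thrb-KO held 1 read in the 5 hypothyroid libraries (replicate 5, 0.0320 CPM) and 1 read in the 5 hyperthyroid libraries (replicate 4, 0.0315 CPM), and a rise of the gene in Thrb-KO was not detectable at this depth. In bulk tissue, fewer cells of a type and less RNA per cell cannot be told apart, for Bpifb3 as for the other 6 genes.

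**Figure D1:**
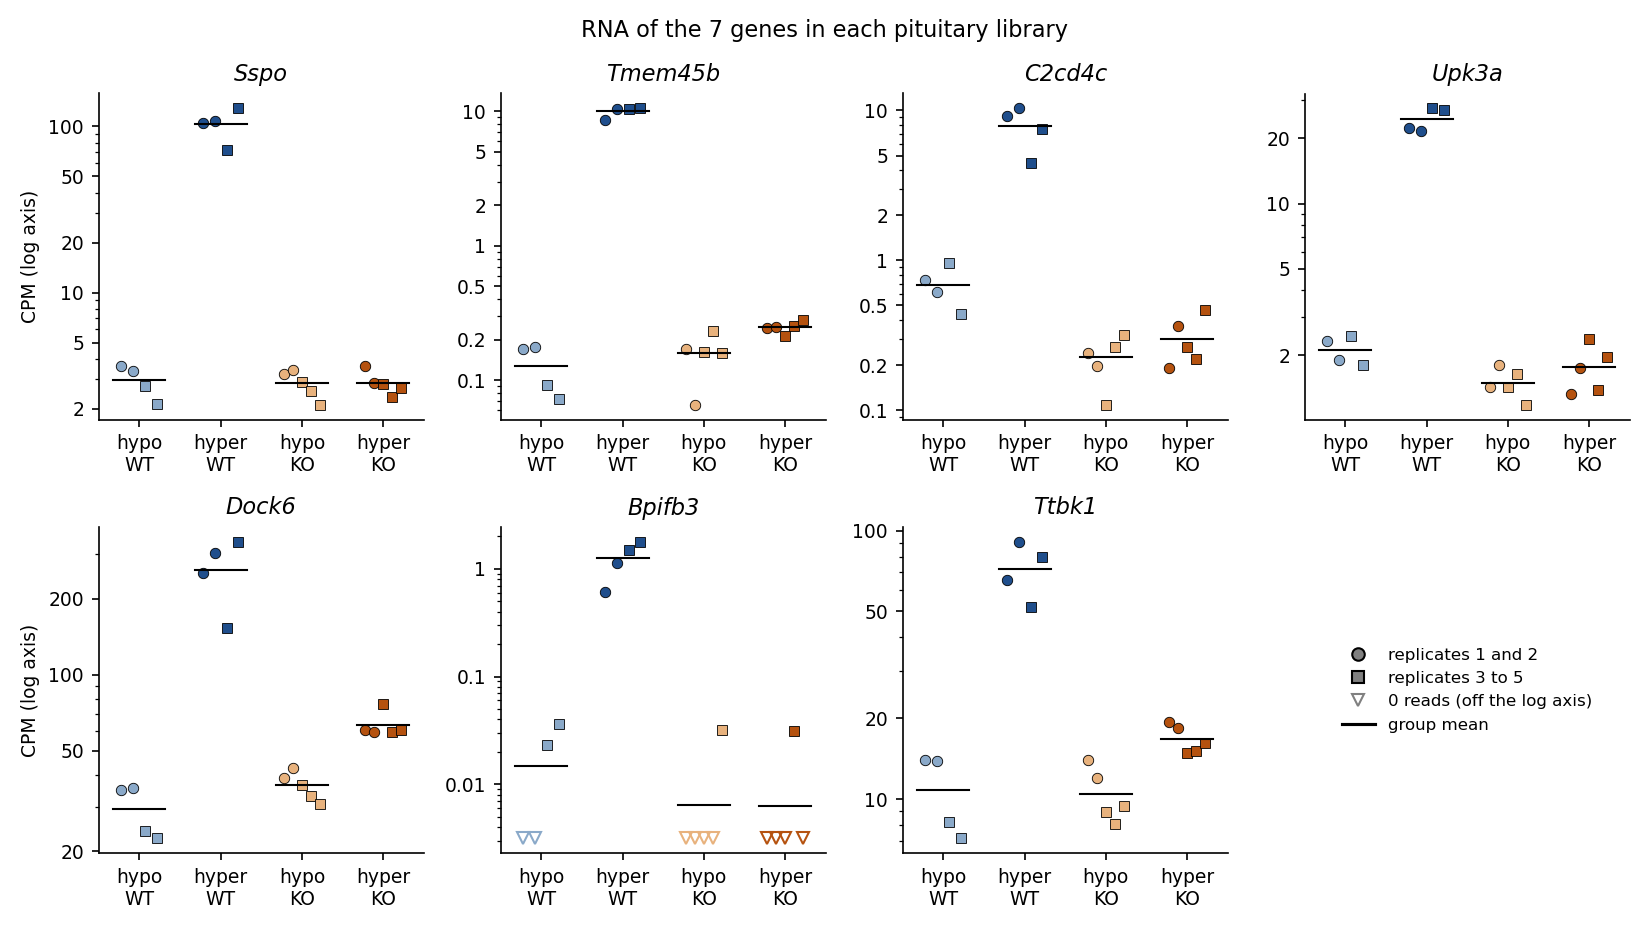
CPM of each of the 7 genes in every pituitary RNA library (log axis, one panel per gene), with hypothyroid (hypo) and hyperthyroid (hyper) libraries of wild type (WT) and labelled Thrb-KO (KO) and the group mean as a line. Circles are replicates 1 and 2, squares replicates 3 to 5, and open triangles at the lower edge are libraries with 0 reads. In every panel the 4 hyperthyroid wild-type libraries lie above the other 14, and the hyperthyroid Thrb-KO libraries of Dock6 and Ttbk1 lie between.

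Per kb of transcript in hyperthyroid wild type, the level of the other genes after Dock6 was 22.2 CPM per kb for Upk3a, 10.3 for Ttbk1, 6.65 for Sspo, 6.37 for Tmem45b, 1.17 for C2cd4c and 0.688 for Bpifb3. Sspo and Tmem45b, next to each other in this order, differed by less than the spread of the Sspo libraries on the per-length scale, whereas their means before scaling for length were 104 and 10.02 CPM.

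Sspo, Upk3a, Dock6 and Ttbk1 exceeded 1 CPM in all 18 libraries and entered the limma fit of 13145 genes on log2(CPM + 1). In wild type their T3 change was 4.71 (SE 0.16) for Sspo, 3.03 (SE 0.13) for Upk3a, 3.08 (SE 0.20) for Dock6 and 2.65 (SE 0.21) for Ttbk1 on that log2 scale. All 4 passed an adjusted p under 0.05 with a 1.5-fold change, as did 3.87% of tested genes in that direction and 9.46% in either. These 4 ranked 1, 4, 3 and 9 by T3 change in wild type among the 13145. Every hyperthyroid library lay above every hypothyroid one in wild type for each of the 7 genes, and for 5.66% of tested genes. Because the genes were chosen for this contrast, nothing follows from these counts beyond a description.

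In Thrb-KO the same log2 change was 0.01 (SE 0.15) for Sspo, 0.14 (SE 0.11) for Upk3a, 0.78 (SE 0.18) for Dock6 and 0.65 (SE 0.19) for Ttbk1. Dock6 was the 1 of the 4 past both limits, where 0.411% of tested genes were higher and 1.01% were called in either direction. That call was lost on leaving out any one of hypothyroid Thrb-KO replicates 3, 4 and 5 or hyperthyroid Thrb-KO replicates 1, 3, 4 and 5, with the change for Dock6 staying between 0.71 and 0.84. With the replicate number as a block both Dock6 and Ttbk1 were called, and within replicates 1 and 2 alone neither was. Thrb-KO libraries with T3 all lay above those without it for Dock6 and Ttbk1 and for 2.05% of tested genes. The rise in mean CPM of Dock6 in Thrb-KO was 11.5% of its rise in wild type, and that of Ttbk1 was 10.3%. For Upk3a it was 1.18%, for C2cd4c 1.04%, for Tmem45b 0.915% and for Sspo 0.0272%. On this scale Dock6 and Ttbk1 kept over 10% of the wild-type rise in CPM, and the other 5 kept at most 1.18% of it. As a fold change the split was less sharp. In edgeR on recovered reads with no filter, the log2 change in Thrb-KO was 0.80 for Dock6, 0.70 for Ttbk1 and 0.63 for Tmem45b. It was 0.43 for C2cd4c, 0.25 for Upk3a, 0.05 for Bpifb3 and 0.03 for Sspo. Few reads lie behind the values of Tmem45b, C2cd4c and Bpifb3.

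The difference between the T3 responses, Thrb-KO minus wild type, was −4.69 (SE 0.22) for Sspo, −2.89 (SE 0.17) for Upk3a, −2.31 (SE 0.27) for Dock6 and −1.999 (SE 0.28) for Ttbk1 on the log2(CPM + 1) scale. Each of the 4 passed the limits, as did 1.78% of tested genes with a smaller response in Thrb-KO, and they ranked 1, 5, 8 and 14 by this difference. Fitted without a filter on low values, the difference was −3.18 for Tmem45b, −2.27 for C2cd4c and −1.12 for Bpifb3. These 3 values understate the change of low genes, since 1 CPM is added to each value before the logarithm.

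**Figure D2:**
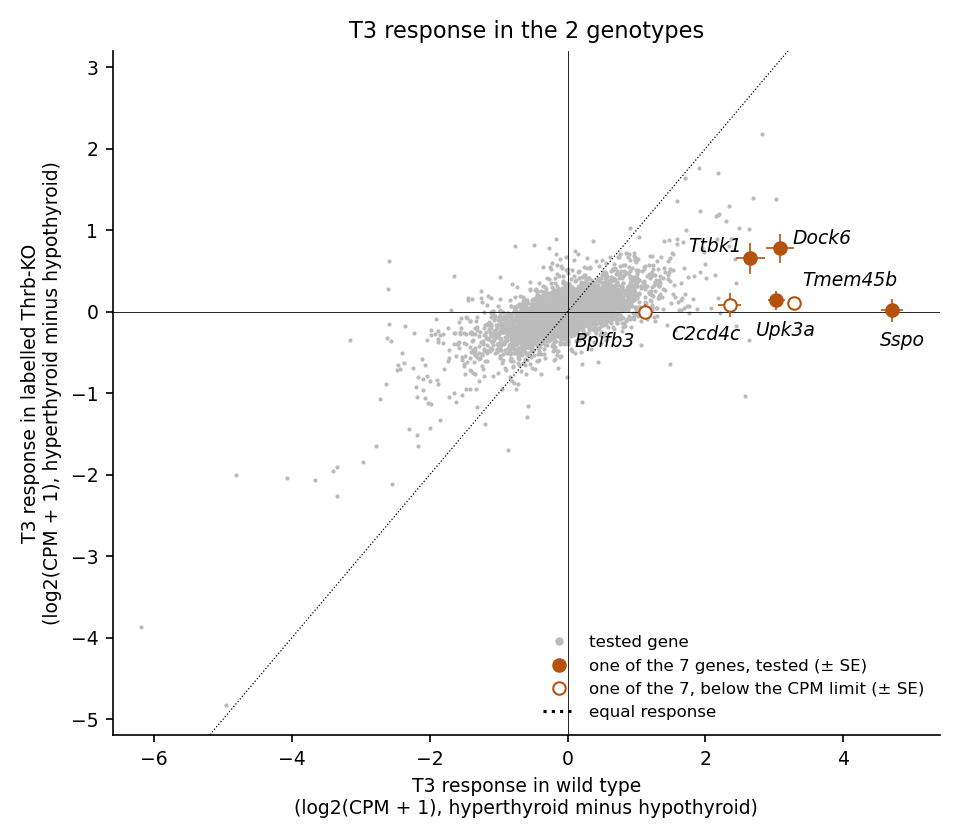
T3 response (hyperthyroid minus hypothyroid, log2(CPM + 1)) in wild type on the horizontal axis and in labelled Thrb-KO on the vertical axis for every tested gene (grey), with the 7 genes in orange and SE as bars. Open circles are Tmem45b, C2cd4c and Bpifb3, which lay below the CPM limit, and the dotted line marks equal responses. Sspo lies farthest right at 4.71 with 0.01 in Thrb-KO, and Dock6 (0.78) and Ttbk1 (0.65) lie above the other 5 genes.

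Between genotypes after T3, the level in Thrb-KO was 2.77% of the wild-type level for Sspo, 2.48% for Tmem45b, 3.82% for C2cd4c, 0.503% for Bpifb3, 24.2% for Dock6 and 23.4% for Ttbk1. Upk3a stood at 7.17%. Every hyperthyroid Thrb-KO library lay below every hyperthyroid wild-type library for each of the 7 genes and for 3.69% of tested genes, and 4 of the 4 tested genes were called lower in Thrb-KO, against 2.32% of all tested genes. The log2 differences were −4.74 for Sspo, −3.22 for Upk3a, −1.98 for Dock6 and −2.01 for Ttbk1.

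Without T3 the genotypes were far more alike. The ratio of mean CPM of hypothyroid Thrb-KO to hypothyroid wild type was 0.957 for Sspo, 0.969 for Ttbk1, 1.24 for Tmem45b and 1.25 for Dock6, and the libraries of the 2 genotypes overlapped for each. For Dock6 they did not overlap within either library set, where Thrb-KO was above wild type at ratios of 1.16 (replicates 1 and 2) and 1.45 (replicates 3 to 5). For Tmem45b the sets went opposite ways, with ratios of 0.683 and 2.24 from 6 to 21 reads per group and set. C2cd4c differed, at 0.225 ± 0.0791 CPM (n = 5) in Thrb-KO against 0.688 ± 0.223 CPM (n = 4) in wild type, a ratio of 0.327 that was 0.322 within replicates 1 and 2 and 0.329 within replicates 3 to 5. Upk3a had a ratio of 0.705, and its highest hypothyroid Thrb-KO library (1.80 CPM) was just below its lowest hypothyroid wild-type library (1.81 CPM). C2cd4c and Upk3a were the 2 of the 7 genes with no overlap here, a pattern shared by 6.70% of tested genes. In the limma fit 0 of the 4 tested genes were called lower in hypothyroid Thrb-KO, against 2.01% of tested genes. At an unadjusted p under 0.05 the limma count was 1 (Upk3a), and edgeR and DESeq2 with the same filter also called 0. With edgeR's quasi-likelihood test on recovered reads and no filter, C2cd4c was the 1 of the 7 genes called in this contrast. Its log2 difference was −1.72, from 37 reads in Thrb-KO and 101 in wild type. The share of all genes called lower in that fit was not counted, so this call has no background beside it.

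The 7 genes do not exhaust the genes with this pattern. Among tested genes outside the 7, 5 had a T3 change in wild type at least as large as that of Ttbk1 (2.65 on the log2 scale). These were Bmp7, a bone morphogenetic protein (3.25 in wild type and 0.06 in Thrb-KO), Gbp3, an interferon-inducible GTPase (3.02 and 1.38), Col4a3, a basement membrane collagen (2.95 and 0.12), Hr, the hairless corepressor (2.82 and 2.18), and Hunk, a protein kinase (2.70 and 1.39). Bmp7 and Col4a3 were the 2 of these whose change in Thrb-KO did not exceed that of Dock6, so they met the wording of the choice as well as the 7 did. Just below the change of Ttbk1 in wild type came Slc6a11, a GABA transporter (2.64 in wild type, 1.01 in Thrb-KO), the beta cardiac myosin gene Myh7 (2.63, −0.35), Col24a1 (2.57, −1.04), Syt12 (2.49, 1.02) and Fndc5 (2.44, 0.35).

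Over the 18 libraries the pairwise Pearson r between the 7 genes on log2(CPM + 1) was 0.864 to 0.992 with a median of 0.949, values that the shared selection and the group structure fix in large part. Among 14466 genes above 1 CPM in at least 4 libraries, the gene whose profile was most like the mean of the 7 was Myh6, the alpha cardiac myosin heavy chain (r = 0.993). Myh6 stood at 0.237 CPM in hypothyroid wild type, 72.2 CPM in hyperthyroid wild type, 0.215 CPM in hypothyroid Thrb-KO and 0.208 CPM in hyperthyroid Thrb-KO. It was also the most like Sspo, Tmem45b and Upk3a taken singly. The next were Cpne9 (r = 0.991), Gm11468 (0.989), Rab44 (0.988) and Bmp7 (0.986). For Dock6 the most similar gene was Foxred2 (r = 0.978) and for Ttbk1 it was Cacna1a (0.983), a calcium channel subunit that went from 32.5 to 65.7 CPM in wild type and from 32.8 to 38.0 CPM in Thrb-KO. These r values describe libraries that share treatment groups and library sets, and they say nothing of shared control.

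The TRβ-HAB peaks near the 5 genes differed in place and strength. The Ttbk1 peak, the strongest, spanned 600 bp in an intron 38974 bp downstream of the start (chr17:46585051-46585650), with 51 HAB;BirA reads and 4 control reads, an authors' fold of 10.6 and a false discovery rate (FDR) of 4.78e-34. The median peak of the list had 18 HAB;BirA reads, and 7.13% of peaks had more than the Ttbk1 peak. Bpifb3 had a peak 4766 bp upstream of its start, where no gene is annotated (chr2:153738701-153739200, 30 against 2 reads, FDR 6.33e-23). The Sspo peak lay in a coding exon 44573 bp downstream of the start (chr6:48442801-48443050, 27 against 4 reads, FDR 1.28e-12). Dock6 carried its peak in an intron 1079 bp from the start (chr9:21655701-21656000, 23 against 3 reads, FDR 3.82e-12). The peak of Tmem45b was the 1 of the 5 that covered a start site, and the weakest with 13 against 1 reads (chr9:31271751-31272000, FDR 1.36e-10). Ttbk1 and Sspo, with peaks deep in the gene, and Tmem45b and Dock6, with peaks at or near the start, show no single arrangement.

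C2cd4c and Upk3a had no pituitary TRβ-HAB peak within 20 kb. The nearest lay 152938 bp from C2cd4c and 165471 bp from Upk3a, each with 15 HAB;BirA reads against 2 control reads. Peaks were called on merged libraries of untreated mice, so replicates cannot be compared, and ChAP-seq under hypothyroid and hyperthyroid treatment was not analysed here.

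T3-regulated ATAC peaks lay within 20 kb of 2 of the 7 genes, Sspo and Ttbk1, against 7.72% of all tested genes and 32.3% of T3-induced genes. The Ttbk1 ATAC peak (chr17:46585010-46585436) shared 386 bases with the TRβ-HAB peak printed above and contained its DR4 with 11 of 12 bases matched. The Sspo ATAC peak (chr6:48442808-48443228) shared 243 of the 250 bases of the TRβ-HAB peak. The list gives no direction of change, so whether these regions opened or closed with T3 was not determined. For C2cd4c the nearest was 72990 bp away in Ppap2c. A DR4 with at most 2 mismatches was present in both ATAC peaks and in 30.9% of the 1776 peaks of the list.

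In cerebral cortex, 1 of the 7 genes had a TRβ-HAB peak within 20 kb, against 34.8% of all tested genes and 44.6% of T3-induced genes. This was Sspo, with a peak 3778 bp upstream inside Zfp467 (chr6:48394151-48394450, 12 against 1 reads), at another place than its pituitary peak. None of the 5 pituitary peaks overlapped a cortex peak. Farther out, pituitary peaks in Repin1 (92452 bp from Sspo), Rab3d (65322 bp from Dock6) and Srf (68177 bp from Ttbk1) did overlap cortex peaks, by 500, 300 and 300 bases. The cortex list had fewer reads per peak (median 13) than the pituitary list, which limits what it can show.

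**Figure D3:**
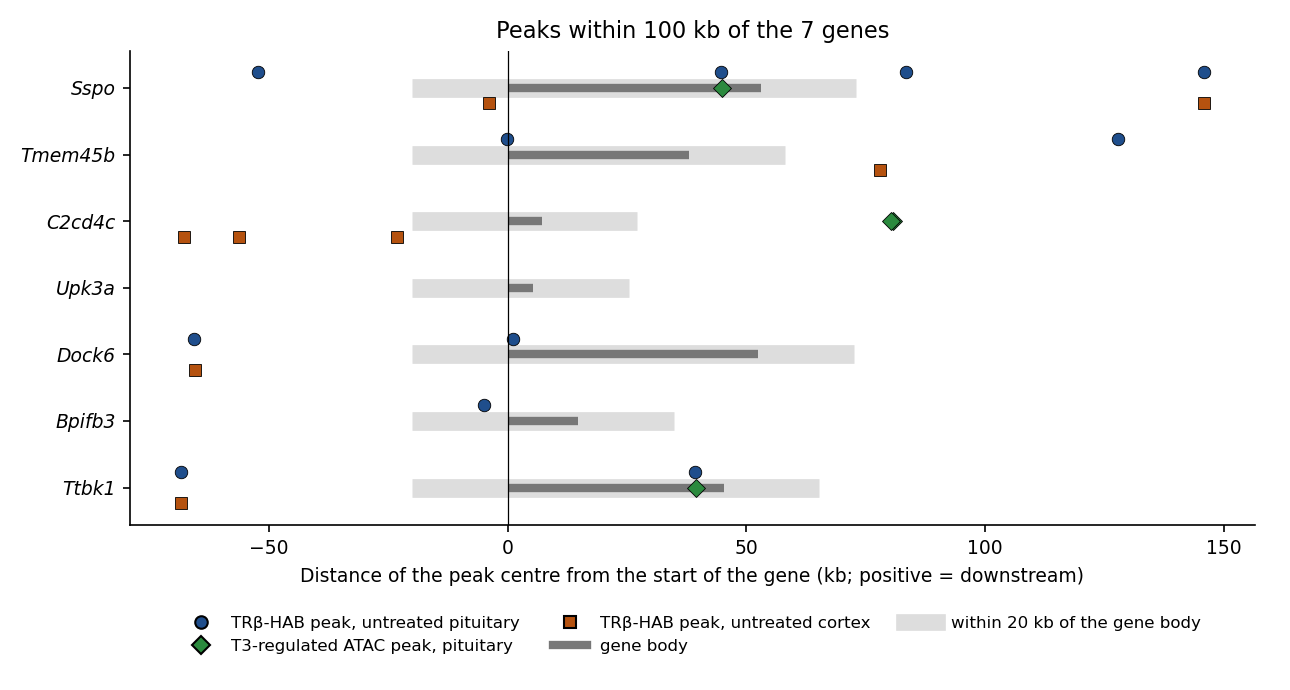
Distance of peak centres from the start of each of the 7 genes (kb, positive downstream), for peaks within 100 kb of the gene body, with the gene body as a dark bar and 20 kb on either side in light grey. Circles are pituitary TRβ-HAB peaks, squares cortex TRβ-HAB peaks and diamonds T3-regulated ATAC peaks. Circles and diamonds coincide inside Sspo and Ttbk1, circles sit at or near the start of Tmem45b, Dock6 and Bpifb3, and the grey bars of C2cd4c and Upk3a hold no peak.

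RefSeq promoters (GRCm38 table, 250 bases before to 50 after the start) were matched for 6 of the 7 genes, 8 promoters in all. A DR4 with at most 2 mismatches was present in 0 of the 8 and in 3.02% of 32851 promoters, and the best match among the 8 had 9 of 12 bases.

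Genes next to the 7 were then examined, because the choice of the 7 did not use them. Within 100 kb lay 46 other genes, of which 27 were tested, and 3 were called higher with T3 in wild type and 0 lower. The 3 of 27 stand beside a background of 3.87% of tested genes, and the median change of the 27 was 0.0013 on the log2 scale. At an unadjusted p under 0.05, 4 of the 27 were lower in limma, and edgeR and DESeq2 also called 0 lower. Zfp467, a zinc finger gene on the minus strand 2404 bp from Sspo, rose from 20.9 ± 3.78 to 47.3 ± 6.01 CPM (n = 4 each) in wild type, a log2 change of 1.15 (SE 0.14, limma with Benjamini-Hochberg adjusted p = 7.21e-06). In Thrb-KO it stood at 21.4 ± 2.73 CPM without T3 and 20.0 ± 2.88 CPM with it (n = 5 each), and the responses differed by −1.24 (SE 0.19, limma adjusted p = 3.85e-04). Fam118a, 14502 bp from Upk3a, likewise rose from 24.8 ± 1.84 to 47.1 ± 7.20 CPM in wild type (n = 4 each), a log2 change of 0.89 (limma adjusted p = 9.60e-06). Its Thrb-KO means were 26.6 ± 3.00 and 29.8 ± 2.92 CPM (n = 5 each) and the difference in response was −0.73 (SE 0.15, limma adjusted p = 0.00532). Zfp467 and Fam118a were the 2 neighbours with a called difference between genotypes, and the difference for Fam118a missed the threshold within replicates 3 to 5 alone (limma adjusted p = 0.0699).

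Kank2, 1638 bp from Dock6, rose from 16.7 ± 5.16 to 26.4 ± 6.17 CPM in wild type (n = 4 each), a log2 change of 0.64 (limma adjusted p = 0.0394). This call was lost without hypothyroid wild-type replicate 3 or 4 or hyperthyroid wild-type replicate 1, 2 or 4, within replicates 1 and 2 alone, and with no filter on low values, with adjusted p up to 0.144. Its response did not differ beyond the threshold between genotypes (−0.73, limma adjusted p = 0.185). Nfrkb, the tested gene nearest to Tmem45b at 4866 bp, changed by 0.01.

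Other neighbours lay below the CPM limit and were noticed after their values were seen, in a limma fit with no filter. Shc2, an adaptor gene on the same strand 3922 bp from C2cd4c, went from 1.75 ± 0.323 to 13.1 ± 3.40 CPM in wild type (n = 4 each) and from 1.07 to 1.12 CPM in Thrb-KO. Its log2 change in wild type was 2.33 (limma adjusted p = 6.37e-09) and its difference in response −2.30 (limma adjusted p = 1.17e-06). Slc22a7, an organic anion transporter gene 3971 bp from Ttbk1, went from 0.0757 to 3.62 ± 1.19 CPM in wild type (11 and 491 reads) and from 0.131 to 0.169 CPM in Thrb-KO, with a difference in response of −2.02 (limma adjusted p = 5.37e-07). Gm6484, which RefSeq lists as Angptl8, a regulator of lipoprotein lipase, lies within Dock6 on the opposite strand (chr9:21639954-21641790). Its 864 exon bases share 0 with exons of Dock6, and it went from 0.348 to 5.38 ± 3.04 CPM in wild type and from 0.489 to 1.05 CPM in Thrb-KO. Its rise in wild type had a limma adjusted p of 2.62e-04, while its difference between genotypes missed the threshold in limma (−1.60, adjusted p = 0.0518) and passed it in edgeR with no filter (−2.80, adjusted p = 0.0241). No source used here states that counting used strand, so reads of Gm6484 and of Dock6 introns cannot be told apart. Gm5111, 88195 bp from Sspo, went the other way, from 1.40 to 0.462 CPM in wild type (log2 −0.71, limma adjusted p = 0.00270) and from 1.58 to 1.33 CPM in Thrb-KO. In Bpifb3's cluster, where no neighbour was tested, Bpifa2e fell by 1.34 in wild type and by 1.18 in Thrb-KO in the same fit.

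**Figure D4:**
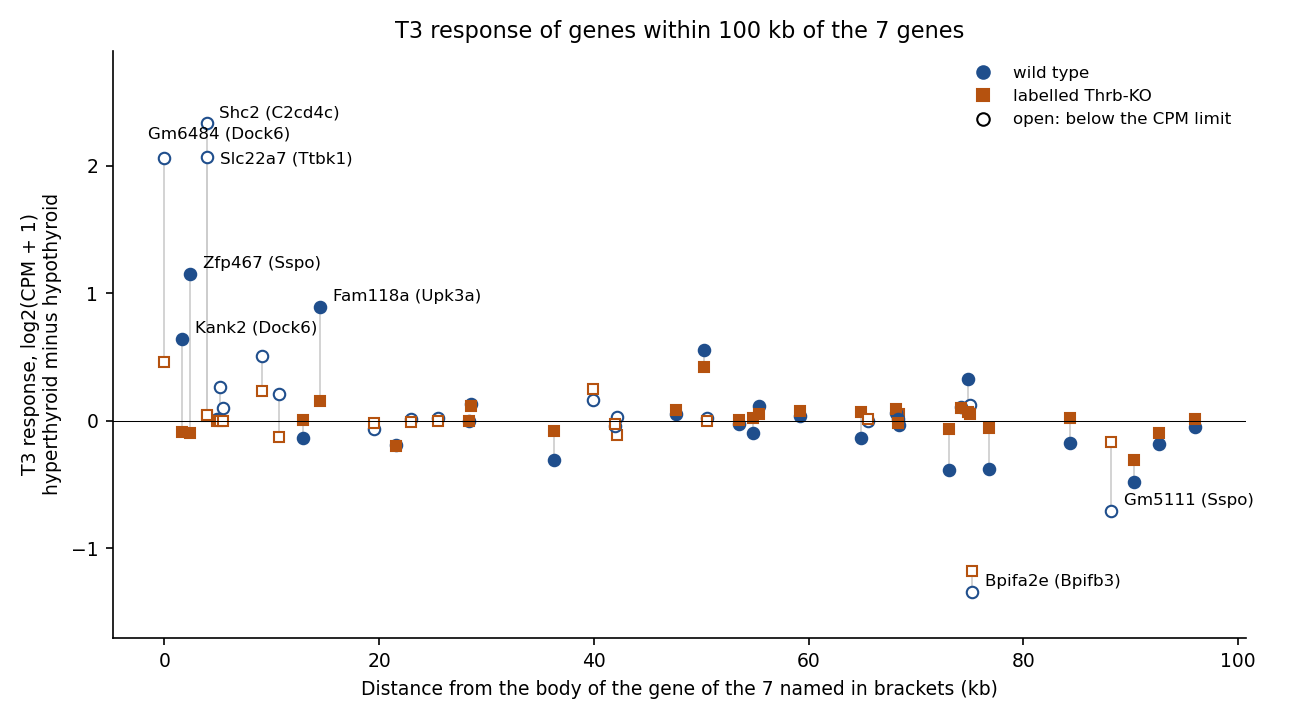
T3 response (log2(CPM + 1), hyperthyroid minus hypothyroid) of the genes within 100 kb of one of the 7 genes against distance from its gene body (kb), in wild type (blue circles) and labelled Thrb-KO (orange squares), with open symbols for genes below the CPM limit. Grey lines join the 2 genotypes of a gene. Shc2 (2.33), Slc22a7 (2.07), Gm6484 (2.06), Zfp467 (1.15), Fam118a (0.89) and Kank2 (0.64) stand above 0 in wild type at short distance, and most other neighbours lie near 0 in both genotypes.

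Relatives of the 7 genes by family were then read from the same fit. Of 54 related genes listed, 53 were in the table and 30 were tested, and in wild type 2 were called higher and 2 lower with a median log2 change of −0.07, against −0.04 over all tested genes. The 4 of 30 stand beside the 9.46% called in either direction over all tested genes. In Thrb-KO 0 were called higher by limma, edgeR or DESeq2 (1 at an unadjusted p under 0.05 in limma) and 1 was lower. Among relatives of Sspo with von Willebrand or thrombospondin domains, 4 were tested and Thbs3, a thrombospondin, fell from 18.0 to 8.77 CPM in wild type, a log2 change of −0.97 (SE 0.17, limma adjusted p = 2.78e-04). Its change in Thrb-KO was −0.15 and the difference in response 0.82 (limma adjusted p = 0.0356), a call that was lost on leaving out any of hypothyroid wild-type replicates 1 to 4, hyperthyroid wild-type replicates 1 and 2, hypothyroid Thrb-KO replicates 1 and 2 or hyperthyroid Thrb-KO replicates 3 to 5 (adjusted p up to 0.0764). The call was also lost in edgeR with no filter. Tecta, another relative of Sspo and a component of the tectorial membrane, lay below the CPM limit, at 0.153 and 1.53 CPM (22 and 212 reads) in hypothyroid and hyperthyroid wild type and 0.189 and 0.427 CPM in Thrb-KO. The 4 other uroplakin genes Upk1a, Upk1b, Upk2 and Upk3b were under 1 CPM in every library. Of 10 DOCK family genes tested with Dock6 left out, 0 were called by limma, edgeR or DESeq2 (2 at an unadjusted p under 0.05 in limma), and their log2 changes in wild type ran from −0.45 to 0.28.

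Among the C2CD4 family, C2cd4a fell in both genotypes, from 7.92 to 2.92 CPM in wild type (log2 −1.20, SE 0.16, limma adjusted p = 1.71e-05) and from 10.0 to 3.19 CPM in Thrb-KO (−1.38, SE 0.14, limma adjusted p = 7.07e-06), opposite to C2cd4c. C2cd4b and C2cd4d changed by −0.39 and 0.04. In the BPI fold family 15 genes were in the table, 11 of them under 1 CPM in every library, and of the 2 tested Lbp, the lipopolysaccharide-binding protein, rose from 12.5 to 19.6 CPM in wild type (log2 0.60, SE 0.12, limma adjusted p = 9.95e-04). The change of Lbp fell under the fold limit within replicates 1 and 2 alone and without hypothyroid wild-type replicate 1 or 2 or hyperthyroid wild-type replicate 4 (lowest log2 0.50). In the casein kinase 1 superfamily 1 of 10 tested genes, Csnk1e, a kinase of the circadian clock, rose from 16.7 to 26.4 CPM (log2 0.62, SE 0.10, limma adjusted p = 2.41e-04). Its change fell under that limit within replicates 1 and 2 alone and without hyperthyroid wild-type replicate 4 (lowest log2 0.52). Tmem45a, the paralog of Tmem45b, changed by 0.25.

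**Figure D5:**
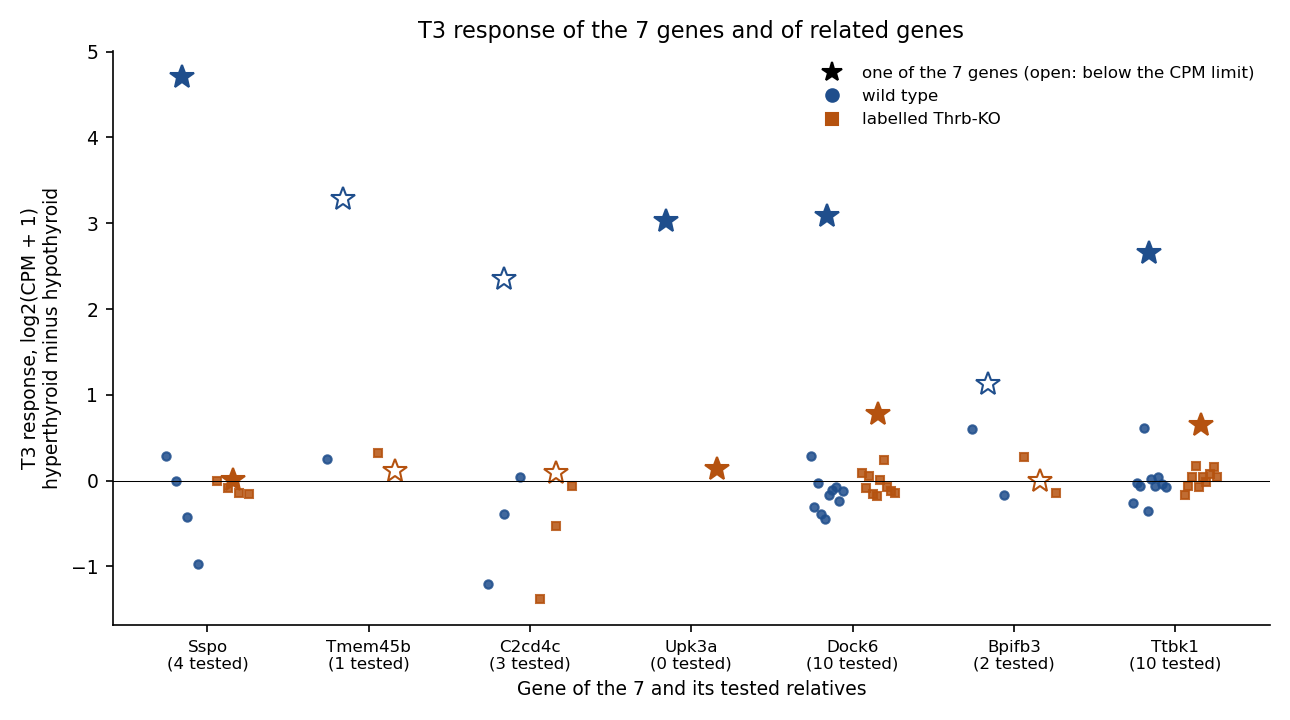
T3 response (log2(CPM + 1), hyperthyroid minus hypothyroid) of the 7 genes (stars, open below the CPM limit) and of their tested relatives (points) in wild type (blue) and labelled Thrb-KO (orange). Stars of wild type lie between 1.12 and 4.71 and the 30 relatives between −1.20 (C2cd4a) and 0.62 (Csnk1e).

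Several of the 7 genes are better known from tissues other than the pituitary, so markers of those tissues were read in the same libraries. Hormone genes of the anterior pituitary were abundant in every library, with Tshb from 40.5 to 6462 CPM and Gh from 48332 to 159094 CPM. Urothelial markers (Upk1a, Upk1b, Upk2 and Krt20) were each under 1 CPM in every library and summed to 0.440 to 0.697 CPM in hyperthyroid wild type against 0.580 to 0.816 CPM in hypothyroid wild type, while Upk3a was at 24.6 CPM. Skeletal muscle markers summed to 1.102 to 2.19 CPM over the 18 libraries, with 4 of 4 under 1 CPM. Of 6 nasal and airway markers, 5 were under 1 CPM in every library, and Bpifa1 ranged from 0.0725 to 6.90 CPM without following T3. Ependymal and choroid plexus markers summed to 64.6 to 72.7 CPM in hypothyroid and 60.7 to 86.1 CPM in hyperthyroid wild type. In Thrb-KO the sums were lower, at 45.9 to 51.4 CPM in hypothyroid and 44.1 to 52.6 CPM in hyperthyroid libraries, below every wild-type library. The part of this genotype difference in the values of the 7 genes was not tested. The 1 of 5 tested that was called for T3, Ttr, fell in both genotypes. Blood, vessel and immune markers had 0 of 6 called by limma, edgeR or DESeq2 and 0 at an unadjusted p under 0.05 in limma, and their sums ran from 68.2 to 141 CPM.

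Brain neuron and myelin markers did move with T3. Their summed level was 54.3 to 68.1 CPM in hypothyroid and 84.0 to 99.8 CPM in hyperthyroid wild type, and 69.3 to 86.1 and 93.0 to 109 CPM in Thrb-KO. Of 6 markers, Slc17a7 and Camk2a rose in wild type and Camk2a rose in Thrb-KO, while Neurod6 and Mog were under 1 CPM in every library. This sum was higher with T3 in both genotypes. Its part in the values of the 7 genes was not tested.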

How the data were processed

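RNA-seq covered 18 pituitary libraries in 4 groups. The authors deposited CPM per RefSeq transcript of mm9, from single-end reads of 50 bases. The methods name BBMap and the submitters' processing notes name STAR. Values were whole reads (tolerance 0.01) for 100% of entries, and the recovered reads were used in edgeR and DESeq2 as alternatives. For ChAP-seq the authors merged replicates and called peaks with SICER 1.1 in windows of 50 bp, and deposited read counts, an FDR and a fold ratio per peak. For each TRβ-HAB peak the authors deposited a p-value too, and the ATAC-seq list holds adjusted p-values of the authors' own T3 comparison (edgeR on MACS2 peaks), which served here only to set a stricter list as an alternative.

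The 7 genes and all lists were chosen with earlier results of these data known. Each gene was represented by its transcript of highest mean CPM. Of 22835 genes, 13145 had CPM above 1 in all 18 libraries and were fitted with limma (trend) on log2(CPM + 1) over the 4 groups, and called where the change reached 1.5-fold with an adjusted p (Benjamini-Hochberg) below 0.05. Other named genes were the tested genes next to the 7 in rank, the most similar profiles, and called neighbours or relatives. Nothing in the labels says the libraries came from separate cages, so p-values measure the spread between pools. Genes were placed on mm9 with GENCODE vM1 (98.52% of tested genes). A DR4 was AGGTCA, 4 bases, AGGTCA on either strand with up to 2 mismatches. Counting intervals cover counting error only.

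Tested on simulated counts of hyperthyroid against hypothyroid wild type (13145 genes), the limma step recovered 98 of 100 genes changed 2-fold and 100 of 100 changed 4-fold. The simulated counts gave every gene the same dispersion and held no library sets. They therefore check that the step runs as intended and do not measure its power in the real libraries. Same-numbered libraries of different groups deviated together (25 pairs, r from 0.13 to 0.815). Different numbers within a library set did so as much (36 pairs, r from 0.271 to 0.755). Libraries of different sets deviated apart (60 pairs, r from −0.779 to −0.243). The shared deviation thus followed the library set, and a pairing by replicate number beyond the set was not shown. Alternatives were other pseudocounts, filters, scalings, tools, blocks, library sets, single libraries left out, peak distances and mismatch limits. Software was R 4.3.3, limma 3.58.1, edgeR 4.0.16, DESeq2 1.42.0, Python 3.11.15, numpy 2.4.6, scipy 1.17.1, pandas 2.3.3, matplotlib 3.10.9 and pysam 0.24.0.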

Additional observations from a re-analysis of the deposited data

Results flagged for a closer look

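In 4 of the 28 groups of library values for the 7 genes, 1 library stood apart from the rest by Dixon's criterion, which chance meets in about 1 in 20 groups of continuous values. Tmem45b was lowest in hyperthyroid wild-type replicate 1 at 8.64 CPM (384 reads), with the next library at 10.4 CPM. Dock6 was highest in hyperthyroid Thrb-KO replicate 3 at 76.2 CPM, with the next at 60.4 CPM. For Bpifb3 the criterion was met by construction, since 1 library held 1 read and the others 0, at 0.0320 CPM in hypothyroid Thrb-KO replicate 5 and 0.0315 CPM in hyperthyroid Thrb-KO replicate 4.

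Of the 7 named neighbours and relatives of the genes tested for a difference in T3 response between genotypes, 3 passed in limma. These 7 were the ones called for T3 in wild type, and among all 1244 genes so called 41.9% had a response that differed between genotypes, against 4.26% of all tested genes. The response in Thrb-KO minus that in wild type was −1.24 for Zfp467 (next to Sspo), −0.73 for Fam118a (near Upk3a) and 0.82 for Thbs3 on the log2(CPM + 1) scale. Thbs3 fell in wild type and changed by −0.15 in Thrb-KO, so its response was also the smaller one in Thrb-KO.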

How the results depend on the processing

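Of the 7 genes, 4 were called for T3 in wild type, for the smaller response in Thrb-KO and for hyperthyroid Thrb-KO below wild type in every fit with the filter of 1 CPM in all libraries, and each count was 6 with CPM above 1 in at least 4 libraries and 7 with no filter. The genes so added exceeded 1 CPM in hyperthyroid wild-type libraries alone. Their calls were fixed by the choice of the genes, and with the limit of 4 libraries also by the filter, so they add no support. All genes called higher in wild type were then 620 of 14472 and 628 of 21461. Added after seeing the data, edgeR with TMM on recovered reads and no filter gave 7 for wild type, 7 for the hyperthyroid genotypes and 1 for the hypothyroid genotypes, where the filtered fit gave 0. In that fit 981 of 21461 genes were called higher in wild type, and the share of all genes called between genotypes was not counted. The counts of 7 follow from the choice of the genes and add no support. For T3 in Thrb-KO the count was 1 (Dock6), 2 with DESeq2, with the library set as a block and with the replicate block, and 0 in replicates 1 and 2 alone. Of 13145 tested genes, those called higher in Thrb-KO in these fits were 54, 80, 67, 66 and 80, in that order. The replicate block, which treats libraries of equal number as matched, changed no other count of the 7 genes, their neighbours or relatives by over 1.5 times. Leaving out single libraries gave 4 to 4 for the wild-type response, for the smaller response and for the hyperthyroid genotypes, 0 to 1 for T3 in Thrb-KO, 0 to 0 for the hypothyroid genotypes, 2 to 5 for relatives (4 otherwise; 2 without hyperthyroid wild-type replicate 4) and 2 to 5 for neighbours (3 otherwise; 5 without hyperthyroid wild-type replicate 3). Neighbours called numbered 7 of 27 with no fold limit, where the share of all genes was not counted. With CPM above 1 in at least 4 libraries they were 8 of 33 (6 higher, 2 lower), against 620 higher and 889 lower of 14472 genes. With no filter they were 7 of 45 (5 higher, 2 lower), against 628 and 898 of 21461. In edgeR with no filter they were 10 of 45 (8 higher, 2 lower), against 981 and 1061 of 21461. Genes with a pituitary TRβ-HAB peak went from 5 to 2 in the part of the list with the smaller FDR, where 24.9% of tested and 60.3% of T3-induced genes had one. With cortex peaks the count was 1, then 0 for overlap with the gene body (20.4% of tested genes), 3 at 50 kb (49.1%), 5 at 100 kb (62.9%) and 0 in the stricter part (19.3%). Peaks with a DR4 fell to 1 of 5 in pituitary (3.94% of all peaks of that list) and 1 of 2 in ATAC (6.53%) with at most 1 mismatch. Over all genes, wild type had 509 higher and 735 lower with limma, 718 and 675 with edgeR on recovered reads, 756 and 683 with DESeq2, and 613 and 602 on CPM scaled by TMM factors. The cause was not tested beyond the genes and peaks each setting admits. Totals of reads limit Bpifb3, Tmem45b and C2cd4c in every group but hyperthyroid wild type.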
